A study of Mus musculus with 8 samples.

Results

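The TGF-beta receptors and Smads described here are 10 of the 23284 genes in the count table, chosen by symbol: the ligand Tgfb1, the receptors Tgfbr1, Tgfbr2 and Tgfbr3, the signal transducers Smad2, Smad3 and Smad4, the inhibitory Smad7 and the co-repressors Ski and Skil. They were measured by RNA sequencing of LSK cells, the bone marrow fraction that lacks lineage markers and carries Sca-1 and c-Kit, where haematopoietic stem and progenitor cells are found. The C57BL/6 mice carried the Hdc-GFP reporter, in which green fluorescent protein reports on Hdc, the gene of the histamine-making enzyme histidine decarboxylase. The cells were sorted into Hdc-GFPhi (n = 4 libraries) and Hdc-GFPlo (n = 4 libraries), with RNA from 2000 cells per library. Both fractions thus share the strain, the reporter and the LSK gate and differ in GFP level, and no treatment is named. How the reporter was built, the age of the mice and whether the libraries came from separate mice are not given in the labels, and the cell type label of Hdc-GFPhi replicate 4 reads GFP+ in place of GFPhi. The p-values therefore measure the spread between these libraries, which may be in part technical.

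Active TGF-beta binds the type II receptor Tgfbr2, which phosphorylates the type I receptor Tgfbr1, and Tgfbr1 in turn phosphorylates Smad2 and Smad3. These enter the nucleus with Smad4 and change transcription, while Smad7 blocks the receptors and Ski and Skil hold Smad complexes in a repressed state. Smad7 and Skil are themselves induced by the signal and act as feedback. In bone marrow, TGF-beta is known for restraining the division of haematopoietic stem cells and for acting differently on lymphoid-biased and myeloid-biased stem cells.

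The libraries held 21041170 to 22470121 counts in Hdc-GFPhi and 16726179 to 23051277 in Hdc-GFPlo. All 10 genes passed the filter on low counts, with 308 to 3815 counts per gene and library. Hdc-GFPlo replicate 3 stood apart from its fraction. Its chi-square per degree of freedom against the other Hdc-GFPlo libraries was 49.8 to 55.4, against 13.3 to 18.2 among those. In Hdc-GFPhi the value was 18.5 between replicates 1 and 2 and 22.2 between replicates 3 and 4. Across these pairs it was higher, at 28.9 to 38.2. Hdc-GFPlo replicate 3 was also the lowest of its fraction for 9 of the 10 genes (35.1% of all tested genes). Hdc-GFPhi replicate 4 was the lowest of its fraction for 7 of the 10 (28.6% of all tested genes). Of the genes of the sorted cells, Kit, the gene of c-Kit, was at 1460.3 ± 110 CPM (read counts relative to the TMM-scaled library total) in the Hdc-GFPhi libraries, against 1195 ± 315 CPM in the Hdc-GFPlo libraries (SD, n = 4 each). Among the defining markers of mature lineages, Cd8a was at 0 counts in all libraries, and Cd3e summed to 0 counts over the Hdc-GFPhi libraries and 7 over the Hdc-GFPlo libraries. Of the endothelial genes, Cdh5 summed to 12 counts in Hdc-GFPhi and 15 in Hdc-GFPlo, and Kdr to 100 counts in Hdc-GFPhi and 129 in Hdc-GFPlo. Emcn, also active in haematopoietic stem cells, was at 45.2 to 56.1 CPM in Hdc-GFPhi cells and 35.4 to 47.7 CPM in Hdc-GFPlo.

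The pathway was transcribed in both fractions from receptor to nucleus, and the libraries of 1 gene of the 10, the co-receptor Tgfbr3, separated by fraction. Tgfbr3 averaged 1.89-fold more in Hdc-GFPhi than in Hdc-GFPlo and was the only one of the 10 whose libraries did not overlap between fractions (1 of 10, against 6.92% of all 13300 tested genes in either direction, 3.38% higher and 3.54% lower). It missed the threshold narrowly with edgeR's quasi-likelihood test (Benjamini-Hochberg adjusted p = 0.0512 over all tested genes, threshold 0.05). Thus 0 of the 10 genes were called, where 0.947% of all tested genes were called (0.241% higher and 0.707% lower). At an unadjusted p under 0.05 there were 2 of the 10, Tgfbr3 higher and Smad7 lower in Hdc-GFPhi, against 10.9% of all tested genes. DESeq2 and limma voom each called 1 of the 10, Tgfbr3. They called more of the 13300 tested genes than edgeR did, 404 with DESeq2 and 276 with voom, against 126. The median log2 fold change (Hdc-GFPhi over Hdc-GFPlo) of the 10 genes was -0.12, with 3 above and 7 below 0, and that of all tested genes was -4.5e-04.

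**Figure D1:**
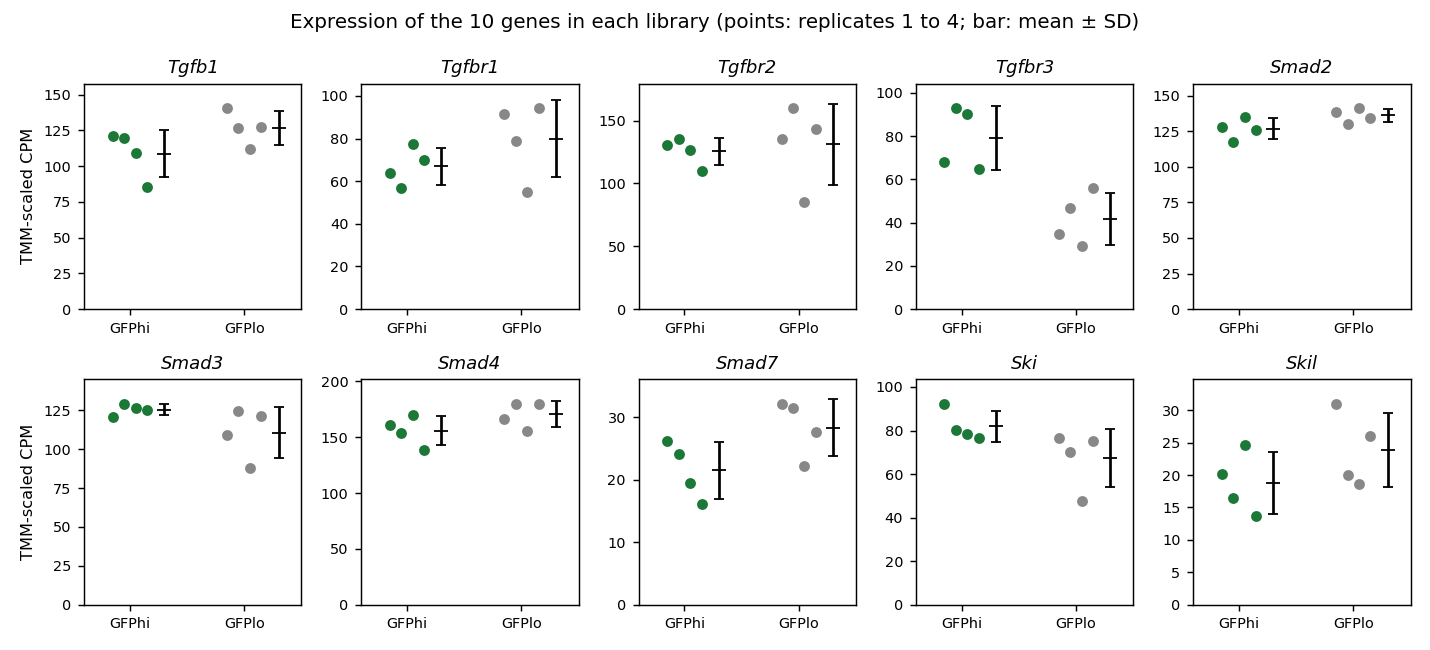
TMM-scaled CPM (y axes, from 0) of the 10 genes in the 4 Hdc-GFPhi and 4 Hdc-GFPlo libraries, with points for replicates 1 to 4 from left to right and bars for the mean ± SD. Tgfbr3 is the gene whose Hdc-GFPhi libraries (64.9 to 93.1 CPM) all lie above the Hdc-GFPlo libraries (29.2 to 56.1 CPM), and Hdc-GFPlo replicate 3 is the lowest Hdc-GFPlo library for Tgfbr1, Tgfbr2, Smad3 and Ski among others.

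The ligand gene Tgfb1 encodes a precursor that is secreted in latent form and is made by many blood cells. It was at 121, 119, 109 and 85.6 CPM in Hdc-GFPhi replicates 1 to 4, against 141, 127, 112 and 127 CPM in Hdc-GFPlo replicates 1 to 4. The fractions overlapped, since Hdc-GFPlo replicate 3 lay below Hdc-GFPhi replicates 1 and 2. The log2 fold change was -0.22 ± 0.12 (SE, 95% interval -0.49 to 0.05, edgeR adjusted p = 0.589). Platelets are rich in Tgfb1, and the 7 megakaryocyte and platelet markers together were at 108 to 140 CPM in Hdc-GFPhi cells and 75.8 to 112 CPM in Hdc-GFPlo, with 0 called. The largest part of that sum was Itga2b, at 79.4 ± 11.7 CPM in Hdc-GFPhi cells and 48.3 ± 12.9 CPM in Hdc-GFPlo. The platelet gene Pf4 was at 8.24 ± 4.31 CPM in Hdc-GFPhi cells and 6.25 ± 3.04 CPM in Hdc-GFPlo. All 7 markers had log2 fold changes above 0 (median 0.41). An unadjusted p under 0.05 was found for 2 of them, against 10.9% of all tested genes. The part of these markers in the Tgfb1 level was not tested.

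The type III receptor gene Tgfbr3 encodes betaglycan, a membrane proteoglycan that presents TGF-beta to Tgfbr2 and also binds inhibins. It was at 68.2, 93.1, 90.3 and 64.9 CPM in Hdc-GFPhi replicates 1 to 4 (1529, 1996, 2028 and 1457 counts), against 34.95, 46.7, 29.2 and 56.1 CPM in Hdc-GFPlo replicates 1 to 4 (790, 787, 528 and 1107 counts). Each Hdc-GFPhi library was above each Hdc-GFPlo library. The means were 79.1 ± 14.6 CPM in Hdc-GFPhi cells and 41.8 ± 12.0 CPM in Hdc-GFPlo cells (SD, n = 4 each), and the log2 fold change was 0.92 ± 0.20 (SE, 95% interval 0.49 to 1.35). By p-value Tgfbr3 ranked 129 of the 13300 tested genes, just behind the 126 that were called. All 10 alternatives that kept the 8 libraries called it higher (adjusted p 6.8e-04 to 0.0499). Of the 9 that left out 1 or 2 libraries, 2 called it and 7 did not (adjusted p 0.0253 to 0.201), with log2 fold changes of 0.80 to 1.10. Without Hdc-GFPlo replicate 3 the log2 fold change was 0.80 (edgeR adjusted p = 0.0588). Without Hdc-GFPlo replicate 1 it was 0.84, with the highest adjusted p of 0.201, and without Hdc-GFPlo replicate 4 it was 1.10, with an adjusted p of 0.0253.

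**Figure D2:**
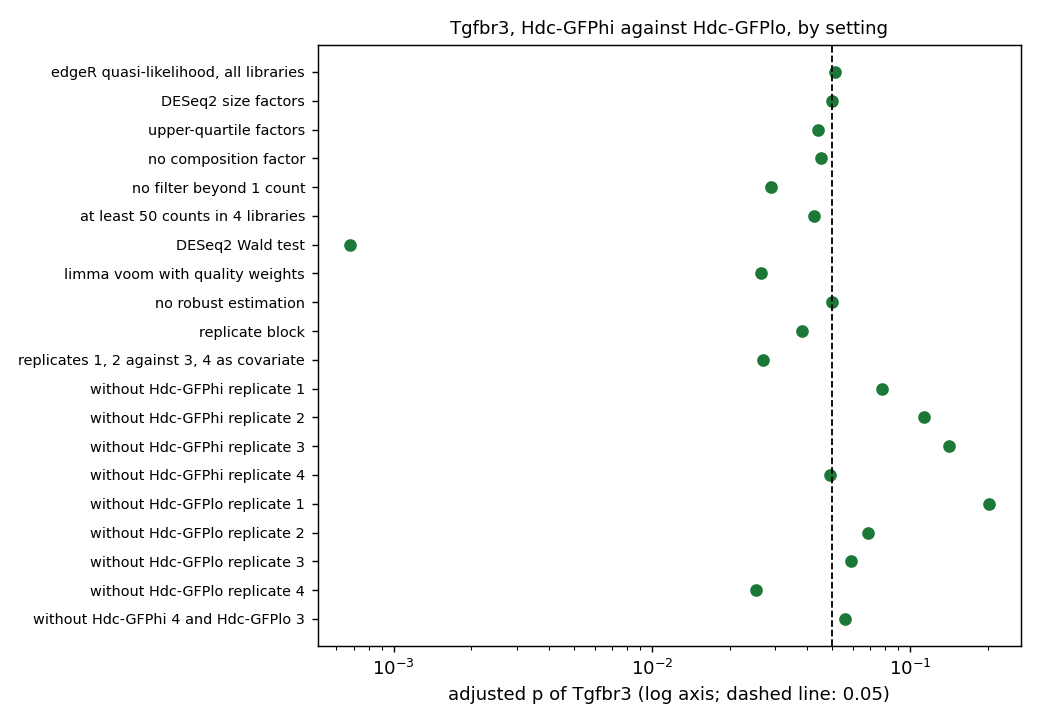
Adjusted p of Tgfbr3 (x axis, logarithmic) for Hdc-GFPhi against Hdc-GFPlo in the quasi-likelihood test of all libraries (top) and in the 19 alternatives, with a dashed line at 0.05. The points run from 6.8e-04 with the DESeq2 Wald test to 0.201 without Hdc-GFPlo replicate 1, and 12 alternatives lie below the line, 10 of them with all libraries.

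Lists of genes of other cells in the LSK gate are given beside Tgfbr3. The 8 stem cell genes together were at 1530 to 1770 CPM in Hdc-GFPhi cells and 1161 to 1338 CPM in Hdc-GFPlo, with 1 called higher (Esam), against 0.241% of all tested genes, and a median log2 fold change of 0.57. The 5 early lymphoid genes in the table together were at 357 to 543 CPM in Hdc-GFPhi cells and 1346 to 1853 CPM in Hdc-GFPlo, with all 5 called lower, against 0.707% of all tested genes. The 8 stromal and endothelial markers together were at 51.0 to 61.7 CPM in Hdc-GFPhi cells and 41.1 to 51.4 CPM in Hdc-GFPlo, with 4 tested, 0 called and Lum at 0. Most of that sum was the endothelial gene Emcn. These lists were chosen with results of these data known, and their part in the Tgfbr3 level was not tested. In bulk libraries, fewer cells of a type and less RNA per cell cannot be told apart. Over the 8 libraries, the 3 genes whose centred log2 CPM profile lay nearest to that of Tgfbr3, among 11512 genes with a mean of at least 50 counts, were Clstn3 (root mean square distance 0.133 on the log2 scale), Arhgef17 (0.155) and Tek (0.182). Clstn3 encodes a calsyntenin and Tek the angiopoietin receptor of stem cells and endothelium. The distance takes in the difference between fractions, so a difference like that of Tgfbr3 was part of how these 3 genes were picked. Their p-values are therefore no separate support for it. Clstn3 was at 86.1 ± 12.8 CPM in Hdc-GFPhi cells and 48.2 ± 11.4 CPM in Hdc-GFPlo cells (SD, n = 4 each, edgeR adjusted p = 0.0432). Arhgef17 was at 14.2 ± 2.38 CPM in Hdc-GFPhi cells and 7.13 ± 2.31 CPM in Hdc-GFPlo cells (adjusted p = 0.0919). Tek was at 51.1 ± 15.8 CPM in Hdc-GFPhi cells and 28.1 ± 9.97 CPM in Hdc-GFPlo cells and was not called (adjusted p = 0.173).

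The genes of the signalling receptor pair had log2 fold changes below 0. Tgfbr1 was at 63.9, 56.8, 77.4 and 69.8 CPM in Hdc-GFPhi replicates 1 to 4, against 91.3, 78.8, 54.7 and 94.4 CPM in Hdc-GFPlo replicates 1 to 4. Hdc-GFPlo replicate 3 lay below all Hdc-GFPhi libraries and the other Hdc-GFPlo libraries above them all. The log2 fold change of Tgfbr1 was -0.25 ± 0.17 (edgeR adjusted p = 0.665), and without Hdc-GFPlo replicate 3 it was -0.38 ± 0.12 (adjusted p = 0.195). Tgfbr2 was at 130, 135, 127 and 110 CPM in Hdc-GFPhi replicates 1 to 4, against 135, 160, 85.5 and 144 CPM in Hdc-GFPlo replicates 1 to 4. Its log2 fold change was -0.06 (95% interval -0.42 to 0.29, adjusted p = 0.937). The ends of that interval correspond to 1.34-fold lower and 1.22-fold higher in Hdc-GFPhi, given the spread between these libraries. Without Hdc-GFPlo replicate 3 the log2 fold change was -0.21 ± 0.10 (adjusted p = 0.449), and it turned to 0.046 without Hdc-GFPlo replicate 2.

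The sequence around the transcription start of both signalling receptors is shown as the place where the genes of the pair begin. It runs from 250 bases before to 50 bases after the start in RefSeq on GRCm38.p6, and capitals mark CAGAC or its reverse complement GTCTG, the box bound by Smad3 and Smad4, and GGCGCC, a GC-rich Smad motif that is its own reverse complement. Of 32851 such windows, 49.6% hold the first on either strand and 11.9% the second, so a match is common. Entries were found for 5 of the 10 genes. Tgfbr1 has 2 entries, of which the upstream one is shown (chr4:47352972-47353271, plus strand), and Tgfbr2 has 1 (chr9:116175314-116175613, minus strand).
Tgfbr1: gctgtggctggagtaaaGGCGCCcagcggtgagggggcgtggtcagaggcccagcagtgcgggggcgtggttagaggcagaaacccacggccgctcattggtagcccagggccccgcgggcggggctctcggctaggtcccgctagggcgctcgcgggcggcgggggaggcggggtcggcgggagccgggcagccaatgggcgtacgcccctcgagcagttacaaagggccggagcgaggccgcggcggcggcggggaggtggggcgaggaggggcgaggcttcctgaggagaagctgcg
Tgfbr2: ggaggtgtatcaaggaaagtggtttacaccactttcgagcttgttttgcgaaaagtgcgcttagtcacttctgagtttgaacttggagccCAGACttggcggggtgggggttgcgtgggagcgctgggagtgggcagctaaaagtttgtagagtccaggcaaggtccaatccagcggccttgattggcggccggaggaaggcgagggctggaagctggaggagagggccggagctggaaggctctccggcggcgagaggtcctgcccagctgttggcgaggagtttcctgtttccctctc
The Tgfbr1 window shown holds 1 GC-rich motif and 0 boxes, while the other Tgfbr1 entry holds 1 box and 0 GC-rich motifs, and the Tgfbr2 window holds 1 box and 0 GC-rich motifs. The other 3 genes with an entry are Tgfb1, Smad3 and Ski, of which Ski holds 1 GC-rich motif.

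Among the transducers, Smad2 was the steadiest of the 10 genes. It ranged from 117 to 135 CPM in Hdc-GFPhi and from 130 to 142 CPM in Hdc-GFPlo, and its SD within fractions of 0.070 on the log2 scale was lower than that of all but 1.39% of tested genes. The log2 fold change of Smad2 was -0.10, with a 95% interval of -0.30 to 0.09 (edgeR adjusted p = 0.779). Smad4, the shared partner of all receptor-activated Smads, ranged from 139 to 170 CPM in Hdc-GFPhi and from 156 to 180 CPM in Hdc-GFPlo (log2 fold change -0.13, 95% interval -0.34 to 0.08, adjusted p = 0.732). Smad3 was at 120, 129, 126 and 125 CPM in Hdc-GFPhi replicates 1 to 4, against 109, 125, 87.9 and 121 CPM in Hdc-GFPlo replicates 1 to 4. The Hdc-GFPhi libraries lay close together while Hdc-GFPlo replicate 3 was low, and the log2 fold change of 0.18 ± 0.12 (adjusted p = 0.655) was 0.10 ± 0.08 without that library (adjusted p = 0.733).

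The inhibitory genes had log2 fold changes of both signs. Smad7, which blocks the type I receptor and recruits ubiquitin ligases to it, was at 26.3, 24.2, 19.5 and 16.1 CPM in Hdc-GFPhi replicates 1 to 4, against 32.2, 31.4, 22.3 and 27.6 CPM in Hdc-GFPlo replicates 1 to 4. The fractions overlapped through Hdc-GFPlo replicate 3, which lay below Hdc-GFPhi replicates 1 and 2. The log2 fold change was -0.40 ± 0.18 (95% interval -0.79 to -0.01, unadjusted p = 0.0442, edgeR adjusted p = 0.435), and without Hdc-GFPlo replicate 3 it was -0.48 ± 0.17 (adjusted p = 0.263). Ski, the co-repressor first known from a viral oncogene, was at 92.4, 80.2, 78.5 and 76.57 CPM in Hdc-GFPhi replicates 1 to 4, against 76.63, 70.0, 47.7 and 75.0 CPM in Hdc-GFPlo replicates 1 to 4. The fractions overlapped narrowly, at the lowest Hdc-GFPhi and the highest Hdc-GFPlo library. The log2 fold change of Ski was 0.28 ± 0.15 (adjusted p = 0.546), and without Hdc-GFPlo replicate 3 it was 0.16 ± 0.10 (adjusted p = 0.589). Skil, the related co-repressor also called SnoN, was at 20.2, 16.4, 24.7 and 13.7 CPM in Hdc-GFPhi replicates 1 to 4, against 31.0, 20.0, 18.7 and 26.0 CPM in Hdc-GFPlo replicates 1 to 4. Its log2 fold change was -0.35 ± 0.21 (95% interval -0.81 to 0.11, adjusted p = 0.620).

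**Figure D3:**
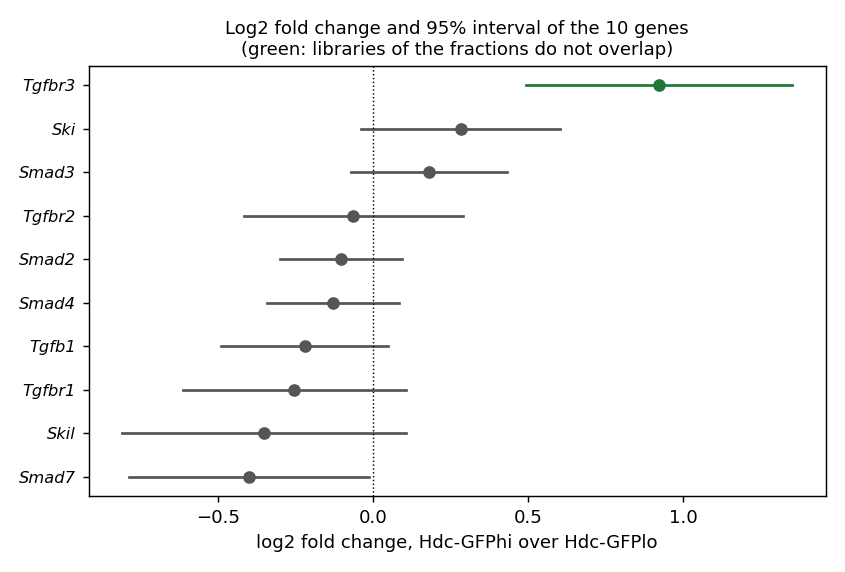
Log2 fold change of Hdc-GFPhi over Hdc-GFPlo (x axis, point) with its 95% interval (line) for the 10 genes, ordered from highest to lowest. The interval of Tgfbr3 runs from 0.49 to 1.35, that of Smad7 ends at -0.01, and the other 8 cross 0.

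Ratios of counts within a library remove the library's scaling, and gene length cancels when a ratio is compared between fractions. They are given as descriptions, without a test. The genes were chosen with earlier results of these data known, and the share of other gene pairs that do not overlap was not counted. The Tgfbr3/Tgfbr2 ratio was 0.523, 0.690, 0.714 and 0.590 in Hdc-GFPhi replicates 1 to 4, against 0.258, 0.292, 0.342 and 0.391 in Hdc-GFPlo replicates 1 to 4, so the fractions did not overlap and the co-receptor was 1.97-fold higher relative to Tgfbr2 in Hdc-GFPhi. The Smad7/Smad3 ratio, of the inhibitor to a transducer, was 0.218, 0.187, 0.154 and 0.129 in Hdc-GFPhi replicates 1 to 4, against 0.296, 0.252, 0.253 and 0.228 in Hdc-GFPlo replicates 1 to 4. These fractions did not overlap either, and the ratio was 1.52-fold lower in Hdc-GFPhi. The Tgfbr3/Tgfbr2 ratio largely restates the difference in Tgfbr3, since Tgfbr2 had a log2 fold change of -0.06. The Smad7/Smad3 ratio joins log2 fold changes of opposite sign, -0.40 for Smad7 and 0.18 for Smad3, neither of them called. The Skil/Ski ratio was 0.218, 0.205, 0.314 and 0.179 in Hdc-GFPhi replicates 1 to 4, against 0.405, 0.285, 0.391 and 0.346 in Hdc-GFPlo replicates 1 to 4. It was 1.58-fold lower in Hdc-GFPhi on average, with Hdc-GFPhi replicate 3 above Hdc-GFPlo replicate 2. The Smad3/Smad2 ratio ranged from 0.935 to 1.10 in Hdc-GFPhi and from 0.622 to 0.957 in Hdc-GFPlo. The Tgfbr2/Tgfbr1 ratio ranged from 1.58 to 2.38 in Hdc-GFPhi and from 1.48 to 2.03 in Hdc-GFPlo. Both of these overlapped.

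**Figure D4:**
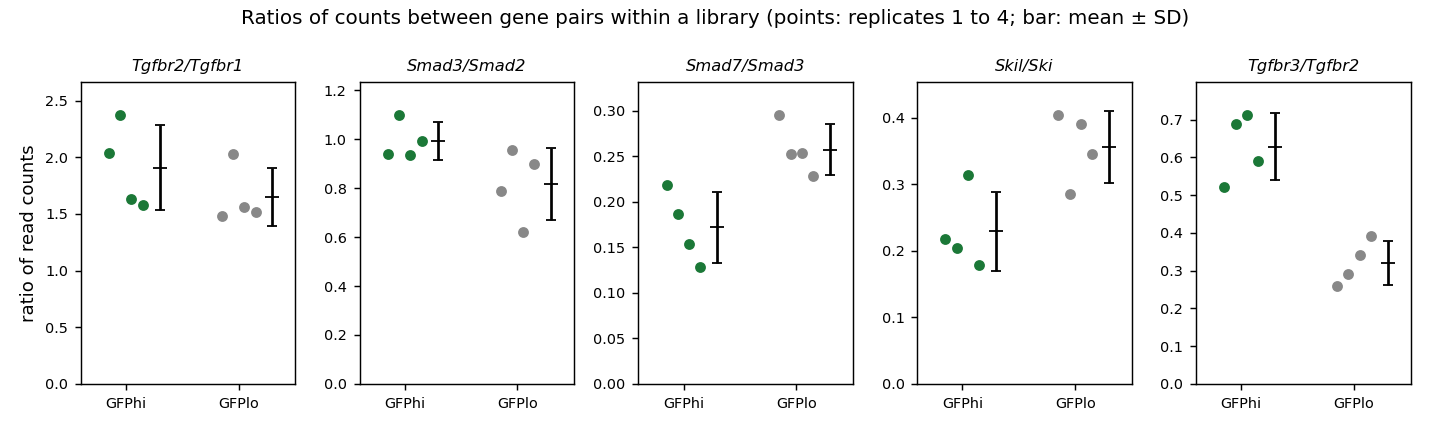
Ratio of read counts between 2 genes of the same library (y axes, from 0) for 5 gene pairs in the 4 Hdc-GFPhi and 4 Hdc-GFPlo libraries, with points for replicates 1 to 4 from left to right and bars for the mean ± SD. Tgfbr3/Tgfbr2 is higher and Smad7/Smad3 lower in all Hdc-GFPhi libraries than in any Hdc-GFPlo library. How often other gene pairs separate in this way was not counted.

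Per kilobase of exon (GENCODE M21 exon union), the order of levels was led by Smad4, at 42.0 ± 3.52 CPM per kb in Hdc-GFPhi and 45.9 ± 3.12 CPM per kb in Hdc-GFPlo (SD, n = 4 each). In Hdc-GFPhi, Smad3 (22.6 CPM per kb), Tgfb1 (21.6), Tgfbr2 (15.3), Ski (14.7), Smad2 (14.4), Tgfbr3 (12.1), Tgfbr1 (10.2), Smad7 (4.76) and Skil (1.93) followed. Neighbours in that order were separate only between Smad4 and Smad3, Tgfb1 and Tgfbr2, Tgfbr1 and Smad7, and Smad7 and Skil. In Hdc-GFPlo, Tgfbr3 stood at 6.38 ± 1.84 CPM per kb, with a lower mean than Tgfbr1 (12.2 ± 2.76) and Ski (12.1 ± 2.41) and a mean close to that of Smad7 (6.27 ± 1.005). Its range there of 4.47 to 8.58 CPM per kb overlapped the ranges of all of these, that of Tgfbr1 (8.37 to 14.5) and that of Ski (8.57 to 13.8) at the edge. Within each Hdc-GFPlo library, however, Tgfbr3 was below both Tgfbr1 and Ski. Its counts in replicates 1 to 4 were 790, 787, 528 and 1107, against 2064, 1327, 988 and 1862 for Tgfbr1. Those of Ski were 1732, 1179, 861 and 1480. The exon unions are 6545 bases for Tgfbr3, 6534 for Tgfbr1 and 5562 for Ski. In Hdc-GFPhi the Tgfbr3 range of 9.92 to 14.2 CPM per kb overlapped those of Tgfbr1, Smad2, Ski and Tgfbr2. The place of Tgfb1 depends on the transcript length used: per kilobase of the longest coding transcript, of 2175 bases against an exon union of 5042, it led the order in both fractions, at 50.02 ± 7.47 in Hdc-GFPhi and 58.3 ± 5.40 CPM per kb in Hdc-GFPlo.

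Outside the 10 genes, 72 further pathway genes were listed by role, of which 58 were tested, 1 was called higher and 1 lower (0.241% of all tested genes were called higher and 0.707% lower). Both calls were among the genes reported to respond to TGF-beta in one or more cell types. None of 9 tested ligand and latency genes was called by edgeR, DESeq2 or voom (median log2 fold change 0.07). An unadjusted p under 0.05 was found for 1 of the 9, against 10.9% of all tested genes. Tgfb2 was too low to test, with 0 to 5 counts in each Hdc-GFPhi library and 1 to 9 in each Hdc-GFPlo library, and the latency integrin gene Itgb8 was at 0 counts. The latent TGF-beta binding protein Ltbp4 had the smallest p of the list, at 6.48 ± 2.65 CPM in Hdc-GFPhi cells and 3.77 ± 1.38 CPM in Hdc-GFPlo (edgeR adjusted p = 0.416). Its relative Ltbp3 had a log2 fold change of 0.29 ± 0.18. The integrin gene Itgb6 of the same list, with 75 counts summed over Hdc-GFPhi and 19 over Hdc-GFPlo, had one of 1.72 ± 0.89.

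Among 8 tested receptors of the wider superfamily, 0 were called by edgeR, DESeq2 or voom and 2 had an unadjusted p under 0.05 (median log2 fold change 0.14). The libraries of both did not overlap between fractions. Of all tested genes, 10.9% had such a p and 6.92% did not overlap. Endoglin (Eng), a co-receptor related to betaglycan and a marker of stem cells and endothelium, was at 172, 189, 139 and 131 CPM in Hdc-GFPhi replicates 1 to 4, against 128, 129, 93.8 and 129 CPM in Hdc-GFPlo replicates 1 to 4 (log2 fold change 0.39 ± 0.14, edgeR adjusted p = 0.289). The activin type II receptor Acvr2b was at 18.1 ± 0.957 CPM in Hdc-GFPhi cells and 14.1 ± 1.22 CPM in Hdc-GFPlo (log2 fold change 0.36 ± 0.14, adjusted p = 0.350). Acvrl1, the type I receptor that works with endoglin in endothelium, was low, at 2.14 ± 0.371 CPM in Hdc-GFPhi cells and 3.76 ± 2.30 CPM in Hdc-GFPlo (adjusted p = 0.547). The BMP receptor genes Bmpr1a and Bmpr1b were too low to test, with 0 to 16 counts of Bmpr1a in each Hdc-GFPhi library, 1 to 29 in each Hdc-GFPlo library, and no count of Bmpr1b.

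Of the BMP branch, Smad1 was at 92.9 ± 3.35 CPM in Hdc-GFPhi cells and 92.7 ± 7.86 CPM in Hdc-GFPlo, and Smad5 was at 158 ± 17.5 CPM in Hdc-GFPhi cells and 147 ± 23.2 CPM in Hdc-GFPlo. The inhibitory Smad6 was at 13.4, 13.8, 10.6 and 11.5 CPM in Hdc-GFPhi replicates 1 to 4, against 9.51, 9.56, 8.53 and 8.27 CPM in Hdc-GFPlo replicates 1 to 4. Its libraries did not overlap, with a log2 fold change of 0.46 ± 0.17 (edgeR adjusted p = 0.296), so this inhibitor lay on the higher side in Hdc-GFPhi and Smad7 on the lower side, neither past the threshold. None of the 3 tested genes of the branch was called by edgeR, DESeq2 or voom, and 1 had an unadjusted p under 0.05. The shares over all tested genes were 10.9% for such a p and 6.92% for libraries that did not overlap.

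Of 17 tested modulators, which anchor, modify or degrade receptors and Smads, 0 were called by edgeR, DESeq2 or voom and 2 had an unadjusted p under 0.05 (median log2 fold change -0.04). These were Tgif1, a homeodomain repressor of Smad complexes, at 63.3 ± 6.31 CPM in Hdc-GFPhi cells and 77.1 ± 2.97 CPM in Hdc-GFPlo (log2 fold change -0.28 ± 0.11, edgeR adjusted p = 0.329), and Strap, a receptor-associated WD-repeat protein, at 212 ± 9.17 CPM in Hdc-GFPhi cells and 241 ± 12.2 CPM in Hdc-GFPlo (-0.19 ± 0.09, adjusted p = 0.456). The libraries of both genes did not overlap between fractions. Of all tested genes, 10.9% had an unadjusted p under 0.05 and 6.92% did not overlap. The ubiquitin ligase Wwp1 had a log2 fold change of -0.18 ± 0.12. The 6 tested nuclear partners spanned -0.06 (Ncor1, a co-repressor scaffold) to 0.07 (the acetyltransferases Crebbp and Ep300), with 0 called by edgeR, DESeq2 or voom and 0 with an unadjusted p under 0.05.

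**Figure D5:**
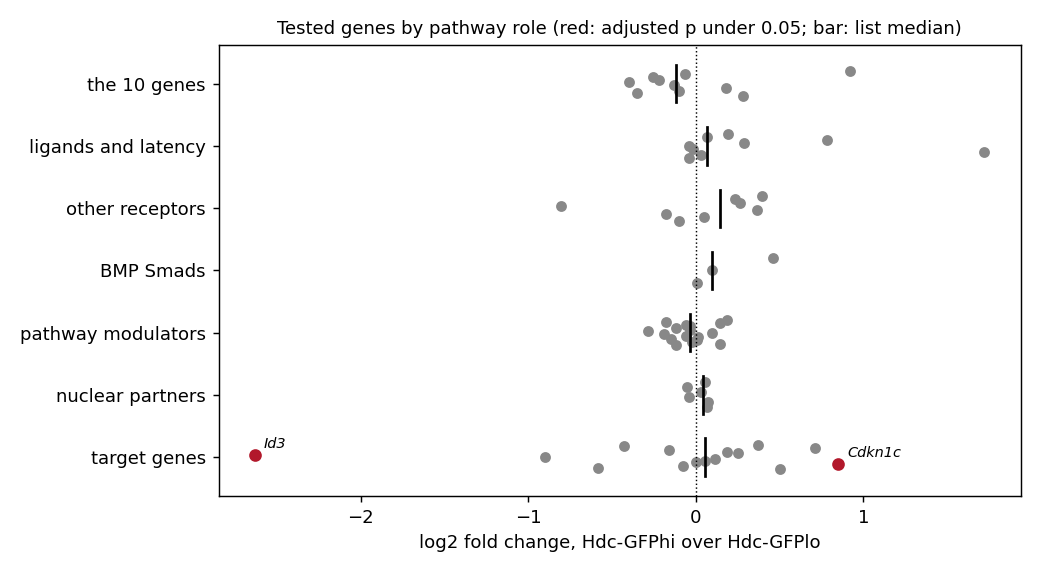
Log2 fold change of Hdc-GFPhi over Hdc-GFPlo (x axis) for each tested gene, by pathway role (rows), with red points for genes with an adjusted p under 0.05 and a bar at each median. Id3 at -2.63 and Cdkn1c at 0.85 are the called genes, and the modulators and nuclear partners lie close to 0.

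Of 15 tested response genes, 1 fell and 1 rose in Hdc-GFPhi (median log2 fold change 0.05). An unadjusted p under 0.05 was found for 5 of the 15, against 10.9% of all tested genes. DESeq2 called 3 of the 15, 1 higher and 2 lower, and voom called 2. Of all 13300 tested genes, DESeq2 called 404 and voom 276. Id3, a helix-loop-helix inhibitor of E proteins that responds to BMP and TGF-beta signals, was at 2.18, 2.94, 1.42 and 1.29 CPM in Hdc-GFPhi replicates 1 to 4, against 20.6, 8.49, 11.6 and 7.81 CPM in Hdc-GFPlo replicates 1 to 4. It fell 6.20-fold in Hdc-GFPhi (log2 fold change -2.63 ± 0.37, edgeR adjusted p = 0.00507) and was called in all 19 alternatives. Id3 is also active in early lymphocytes, whose genes were lower in Hdc-GFPhi as given above, and their part was not tested. Its relative Id2 (log2 fold change -0.90 ± 0.23, adjusted p = 0.0986) had 9.53 to 13.2 CPM in Hdc-GFPhi cells and 12.2 to 26.3 CPM in Hdc-GFPlo. Id2 was called lower by DESeq2 (adjusted p = 0.00977) and by edgeR without Hdc-GFPlo replicate 4 (adjusted p = 0.0265), and in the other 17 alternatives its adjusted p ran up to 0.321. The cell cycle inhibitor Cdkn1c rose 1.802-fold, at 18.5 to 25.00 CPM in Hdc-GFPhi cells and 11.2 to 13.2 CPM in Hdc-GFPlo (adjusted p = 0.0188), and was no longer called in 5 of the 8 fits with 1 library left out, those without Hdc-GFPhi replicate 1 or 4 and those without Hdc-GFPlo replicate 1, 2 or 4 (largest adjusted p 0.0880). Ctgf, a growth factor gene induced by TGF-beta in fibroblasts, was too low to test and had 0 to 14 counts in each Hdc-GFPhi library and 1 to 4 in each Hdc-GFPlo library. The start of Id3 is shown as the window of the response gene that fell most (RefSeq, GRCm38.p6, chr4:136143572-136143871, plus strand), with the same motifs in capitals.
Id3: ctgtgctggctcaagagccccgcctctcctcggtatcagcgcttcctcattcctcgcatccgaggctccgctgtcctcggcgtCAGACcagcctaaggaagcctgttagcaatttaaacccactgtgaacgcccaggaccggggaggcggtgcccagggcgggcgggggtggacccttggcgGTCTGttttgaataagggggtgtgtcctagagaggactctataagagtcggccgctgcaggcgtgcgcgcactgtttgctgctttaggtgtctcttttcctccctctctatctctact
It holds 2 boxes, at 167 and 68 bases before the start, and 0 GC-rich motifs. Of all such windows, 49.6% hold at least 1 box, and the share with 2 was not counted. Whether the boxes bear on the Id3 level was not tested.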

How the data were processed

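The authors deposited 1 table of whole-number counts by gene symbol, not normalized. The submitters' processing notes name HTSeq 0.6.1, TopHat2 (as version 2.04), Bowtie2 and bcl2fastq 1.8.4, and the build mm9. Settings, annotation and strand handling were not given in the sources used here. Overlapping, antisense or near-identical genes cannot therefore be told apart. Per the labels' protocols, cDNA came from a SMARTer kit and libraries from Nextera XT.

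Columns were tied to samples by library code and groups taken from titles. edgeR 4.0.16 in R 4.3.3 (filterByExpr, 13300 genes kept, TMM, glmQLFit robust, glmQLFTest, no covariate, Benjamini-Hochberg, threshold 0.05) compared Hdc-GFPhi with Hdc-GFPlo. The fit was also run on simulated libraries with known changes. These were drawn independently, with no outlying library such as Hdc-GFPlo replicate 3, and the outcome is not given here. Genes are called, or rose or fell, only past that threshold. Amplification carries no molecular identifiers. Lengths came from GENCODE M21 and promoters from RefSeq, both GRCm38, not mm9. Alternatives were other scalings and filters, DESeq2 1.42.0, limma 3.58.1 voom, no robust estimation, a replicate block, a split of replicates as covariate, and libraries left out.

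The 10 genes and all lists were chosen with earlier results of these data known. Named genes are the 10, the 3 smallest p of each pathway list, called genes and the 3 profiles nearest to Tgfbr3. Others named (genes too low to test, Kit) were chosen after their values were seen. An item of the response list is not reported here.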

Additional observations from a re-analysis of the deposited data

Results flagged for a closer look

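Of 72 sets of 4 values examined for a library far from its fraction, 2 were singled out, where chance alone gives about 1 in 20. Eng was at 93.8 CPM in Hdc-GFPlo replicate 3, against 128 to 129 CPM in the other Hdc-GFPlo libraries. The Tgfbr2/Tgfbr1 ratio of counts was 2.03 in Hdc-GFPlo replicate 2, against 1.48 to 1.56 in the other Hdc-GFPlo libraries.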

How the results depend on the processing

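The number of the 10 genes called was 0 in the quasi-likelihood test of all libraries and 1 (Tgfbr3) with DESeq2 size factors (adjusted p = 0.0499), no filter beyond 1 count (0.0289), upper-quartile factors (0.0439), a filter of 50 counts in 4 libraries (0.0425), no composition factor (0.0452), voom (0.0265), the DESeq2 Wald test (6.8e-04), no robust estimation (0.0498) and a covariate that sets replicates 1 and 2 apart from 3 and 4 (0.0270). It was 0 to 1 with 1 library left out (1 without replicate 4 of either fraction), and 0 without both Hdc-GFPhi replicate 4 and Hdc-GFPlo replicate 3 (Tgfbr3 adjusted p = 0.0560). Why these settings differ was not tested. The replicate block called 1 of the 10 (Tgfbr3, adjusted p = 0.0381) and 224 of all genes, against 126 without it. Same-numbered libraries correlated at r = 0.26, 0.35, 0.08 and 0.10 in their deviations from the fraction means, and replicates 3 and 4 each correlated best with the other's number, so the numbers were not taken as pairs. All genes called numbered 404 with DESeq2, 276 with voom, 275 with that covariate and 52 (without Hdc-GFPlo replicate 1) to 146 with 1 library left out, with 68 without Hdc-GFPhi replicate 3. Response genes called numbered 1 to 2 with 1 library left out, being 1 in the fits without replicate 1 or 4 of Hdc-GFPhi and without replicate 1 or 2 of Hdc-GFPlo. Of 190 alternative values of the 10 genes, 177 kept direction and side of the threshold. With 1 library left out, the log2 fold change of Tgfbr2 ranged from -0.21 to 0.046 (turned without Hdc-GFPlo replicate 2), that of Smad1 from -0.021 to 0.061 (turned without replicate 2 of Hdc-GFPhi or replicate 1 or 3 of Hdc-GFPlo) and that of Ep300 from -0.044 to 0.18 (turned without Hdc-GFPlo replicate 3). Smad1 also turned to -0.0050 with voom and -0.0067 without both libraries named above, and Ep300 to -0.035 and -0.0082. All 5 ratios kept direction with 1 library left out. The scalings moved the median of all genes by at most 0.02 on the log2 scale. A fit for Itgb6 was not had under the filter of 50 counts or without both libraries.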
